A study of Mus musculus with 2 samples.

Results

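The genes described here are 10 orphan nuclear receptors of the mouse: the estrogen-related receptors Esrrb, Esrra and Esrrg, the monomeric receptor Nr5a2, the atypical receptor Nr0b1, the germ cell nuclear factor Nr6a1, the COUP-TF genes Nr2f1, Nr2f2 and Nr2f6, and the testicular receptor Nr2c2. They were taken by symbol, and all 10 were found among the 28592 genes of the table. The samples were 2 replicates of 1 group, embryonic stem (ES) cells of the male, Hprt-deficient mouse line E14TG2a, held in the ground state by 2i/LIF culture (MEK and GSK3 inhibitors with leukaemia inhibitory factor). Total RNA was depleted of ribosomal RNA and sequenced with strand-specific libraries. Values are FPKM, which counts fragments relative to transcript length and library total, so levels can be compared between genes per length. No other cell state was measured, and whether the replicates came from separate cultures is not stated in the labels. With 1 group there is no test between conditions, and errors are SDs over the replicates (n = 2), which may be technical.

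Nuclear receptors are transcription factors with a zinc-finger DNA-binding domain and a ligand-binding domain, and orphan members are those named before, or without, an agreed natural ligand. Esrrb and Nr5a2 bind an extended AGGTCA element as monomers and are known activators of the mouse naive pluripotency network, with Esrrb acting downstream of GSK3 inhibition through relief of repression by Tcf7l1. Nr0b1 lacks the zinc fingers and works as a corepressor of other receptors, Nr5a2 among them. Nr6a1 is known for repressing Pou5f1 once ES cells differentiate, and the COUP-TFs are factors of neural and mesenchymal differentiation.

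The cells carried the markers of ES cells. All 7 ES cell markers were detected, which is used here for an FPKM of at least 1 in both replicates, with a list median of 224. None of 7 primitive endoderm markers and none of 7 neural markers was detected, while 39.4% of all genes were. Detected markers of other cell types were Krt8, Krt18 and Cdx2 among 7 trophectoderm genes and Fbln1 among 10 fibroblast genes. Replicates 1 and 2 had total FPKM of 946498 and 928174, and read numbers are unknown. In such bulk samples, fewer cells of a type and less RNA per cell cannot be told apart.

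Of the 10 receptors, 7 were detected, against 39.4% of all 28592 genes. Esrrb, Nr0b1 and Nr5a2 stood highest, Esrra, Nr2c2 and Nr2f6 at intermediate levels and Nr6a1 lower, while Nr2f1, Nr2f2 and Esrrg were below the limit. The median of the 10 genes was an FPKM of 11.3, against 0.233 over all genes and 12.7 over the 11253 detected genes. The order of the 10 was the same in both replicates, and in each of the 9 steps down the order both replicates of the upper gene lay above both replicates of the lower one. Some of these steps were narrow. The lower Nr2c2 value exceeded the higher Nr2f6 value by a ratio of 1.01, and the lower Nr0b1 value exceeded the higher Nr5a2 value by a ratio of 1.04. At n = 2 such margins do not establish an order.

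**Figure D1:**
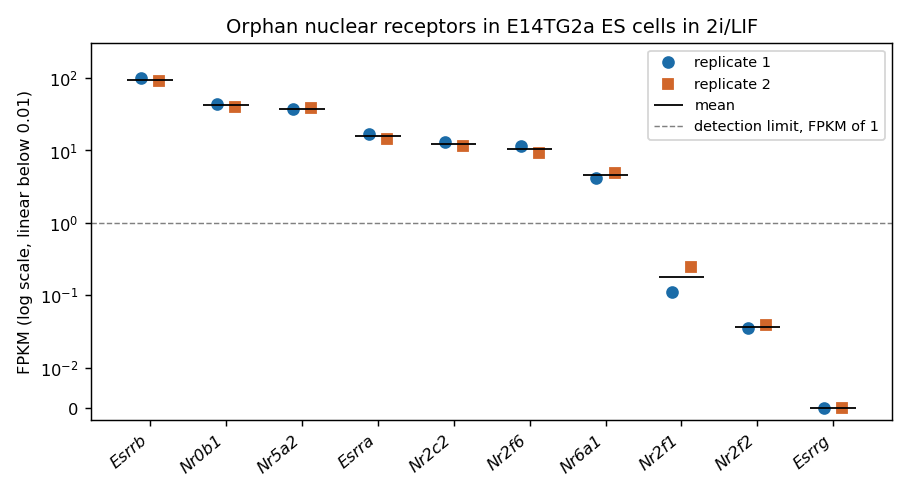
FPKM of the 10 orphan receptors in order of mean level (vertical axis logarithmic above 0.01 and linear below, circles replicate 1, squares replicate 2, bars the mean). Esrrb stands at 98.4 and 90.8, 7 genes lie above the dashed limit of 1, and Esrrg is listed at 0 in both replicates.

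The start regions of the genes are shown first, since receptors of this family read AGGTCA elements and a few of the members are known to regulate one another. RefSeq windows on GRCm38.p6, from 250 bases before to 50 bases after a start, were found for all 10 genes, 17 windows in all. The motif AGGTCA was searched on both strands and was present in 3 of these windows (17.6%), against 16.3% of 32851 windows of all genes. It lay once at the Nr0b1 start, once at the upstream Nr5a2 start and 2 times at the second Nr6a1 start. Each is printed 5′ to 3′ on the strand of the gene, with the motif in capitals, and for Nr6a1 the capitals read as the reverse complement because the motif is on the other strand.
Nr0b1, chrX:86191632-86191671, plus strand, motif at -126 to -121 from the start: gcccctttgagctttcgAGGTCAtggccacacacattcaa
Nr5a2, chr1:136960490-136960529, minus strand, motif at -64 to -59: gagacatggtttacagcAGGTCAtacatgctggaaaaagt
Nr6a1, chr2:38784584-38784623, minus strand, motif at -91 to -86: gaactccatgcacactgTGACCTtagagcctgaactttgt
Nr6a1, chr2:38784538-38784577, minus strand, motif at -45 to -40: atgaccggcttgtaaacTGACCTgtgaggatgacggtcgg
The extended element TCAAGGTCA, which contains AGGTCA, was in none of the 17 windows and in 0.423% of all windows. The palindromic STAT element TTCCNGGAA, with N for any base, and the octamer ATGCAAAT were likewise in none of the 17, against 1.15% and 1.74% of all windows. These matches describe the letters in the windows only, and binding was not measured.

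The estrogen-related receptors were represented mainly by Esrrb. Esrrb (ENSMUSG00000021255.16, chr12:86361117-86521628, plus strand), the orphan receptor most closely tied to ES cell self-renewal, had an FPKM of 98.4 in replicate 1 and 90.8 in replicate 2, or 94.6 ± 5.39. Only 1114 genes of the table had a higher mean, and 90.1% of detected genes had a lower one. Esrra (ENSMUSG00000024955.12, chr19:6910977-6922048, minus strand), a broadly expressed regulator of mitochondrial genes, had 16.9 and 14.4 (15.6 ± 1.77). Esrrb exceeded Esrra 5.84-fold in replicate 1 and 6.33-fold in replicate 2, and the replicates of the genes did not overlap. Esrrg (chr1:187608510-188214885, plus strand), the third receptor of this subfamily, was listed at 0 in both replicates, which for Cufflinks can also be a failed estimate. Esrrb made up 85.4% and 86.3% of the summed FPKM of the subfamily in replicates 1 and 2. The classical estrogen receptors, the nearest relatives outside the 10 genes, were not detected, with Esr1 at 0.0316 and 0.0501 and Esr2 at 0.0263 and 0.0185.

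Nr0b1 and Nr5a2, a corepressor and the activator it is known to bind, stood next to each other. Nr0b1 (ENSMUSG00000025056.4, chrX:86191775-86195947, plus strand) had an FPKM of 44.2 in replicate 1 and 39.9 in replicate 2 (42.0 ± 3.003). Nr5a2 (ENSMUSG00000026398.13, chr1:136842562-136960448, minus strand) had 36.8 and 38.5 (37.7 ± 1.15). The gap between them was narrow, with Nr0b1 over Nr5a2 at 1.20-fold in replicate 1 and 1.04-fold in replicate 2. Esrrb exceeded Nr5a2 2.67-fold and 2.36-fold in the same replicates. Their subfamily relatives were not detected. Nr5a1, the steroidogenic factor of adrenal and gonad, was listed at 0 in both replicates, and Nr0b2, which represses receptors in liver, had 0.0281 and 0.0562.

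Nr6a1 was the lowest of the detected receptors. Nr6a1 (ENSMUSG00000063972.12, chr2:38723369-38926461, minus strand) had an FPKM of 4.24 in replicate 1 and 4.81 in replicate 2 (4.52 ± 0.410), and 24.8% of detected genes had a lower mean. Pou5f1, the gene it is known to silence during differentiation, had 1005 and 947. Nr6a1 lies 8827 bases from Nr5a1 on chromosome 2, so the detected receptor and the one listed at 0 are neighbours. The antisense gene Nr6a1os, whose span shares 105892 bases with Nr6a1 on the other strand, was not detected, at 0.246 and 0.0597.

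The Nr2 genes were divided between detected and undetected members. Nr2c2 (ENSMUSG00000005893.13, chr6:92091418-92173058, plus strand), which binds direct repeats of AGGTCA, had an FPKM of 12.9 in replicate 1 and 11.6 in replicate 2 (12.2 ± 0.911). Its close relative Nr2c1 had 1.16 and 1.10, so Nr2c2 was higher 11.1-fold and 10.6-fold. Nr2f6 (ENSMUSG00000002393.13, chr8:71374118-71381967, minus strand), the most divergent COUP-TF, had 11.4 and 9.27 (10.4 ± 1.53). Neither of the other COUP-TF genes was detected. Nr2f2 (ENSMUSG00000030551.12, chr7:70351946-70366746, minus strand), a factor of venous and mesenchymal cells, had 0.0356 and 0.0387. Nr2f1 (ENSMUSG00000069171.12, chr13:78188971-78198873, minus strand), a regulator of cortical patterning, had 0.113 and 0.244. Nr2f6 exceeded Nr2f1 102-fold in replicate 1 and 37.9-fold in replicate 2, so the size of that gap depends on which replicate of Nr2f1 is used.

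The replicate difference of Nr2f1, 2.17-fold higher in replicate 2, was the widest among the members above 0. Both Nr2f1 values lie below the detection limit. Receptors outside the 10 at such levels also differed, with replicate 2 over replicate 1 at 2.36 for Hnf4a and 0.251 for Ppara. Fibroblast markers were higher in replicate 2 in 8 of 10 genes. Over all genes, 10541 were higher in replicate 2 and 10041 in replicate 1. The summed FPKM of the fibroblast markers was 22.1 in replicate 2 and 20.6 in replicate 1, most of it from Fbln1 at 18.5 and 19.8 in the same order. The collagen genes Col1a1, Col1a2 and Col3a1 had 0.552, 0.917 and 0.809 in replicate 2 and 0.0136, 0.0101 and 0.0481 in replicate 1, and Dcn and Postn were listed at 0 in replicate 1 only. Primitive endoderm markers were higher in replicate 2 in 4 of 7 genes, with sums of 0.950 in replicate 2 and 0.654 in replicate 1, and Dab2 among them had 0.406 and 0.0426 in the same order. Of 7 trophectoderm markers 3 were higher in replicate 2 (sums of 18.3 in replicate 2 and 19.2 in replicate 1). Of 7 neural markers 2 were higher in replicate 2 (sums of 0.304 in replicate 2 and 0.432 in replicate 1). The part of other cells in the Nr2f1 values was not tested. Nr2f2 was 1.09-fold higher in replicate 2.

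Among the 7 detected receptors, none differed by more than 1.5-fold between the replicates, against 1.80% of the 11253 detected genes. The log2 ratio of replicate 2 to replicate 1 ran from -0.30 for Nr2f6 to 0.19 for Nr6a1, inside the central 90% of detected genes (-0.31 to 0.28). That band includes genes of lower level. Over the 7689 detected genes with a mean FPKM of 4 to 100, where all 7 receptors fall, it was narrower (-0.26 to 0.21). Nr2f6 lay outside this narrower band. Esrrb, Nr0b1, Esrra, Nr2c2 and Nr2f6 were lower in replicate 2, while Nr5a2 and Nr6a1 were higher in it. The median absolute log2 ratio was 0.15 over these 7 genes and 0.09 over all detected genes.

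**Figure D2:**
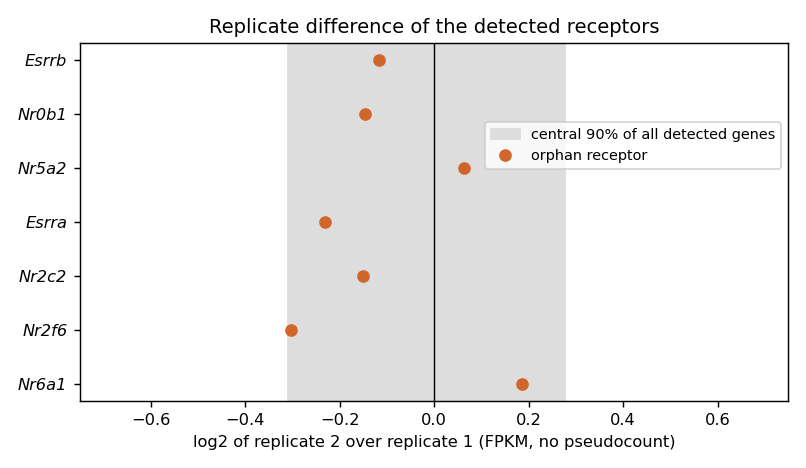
Log2 ratio of replicate 2 to replicate 1 for the 7 detected receptors (FPKM, no pseudocount), with the central 90% of all 11253 detected genes shaded. The points run from -0.30 (Nr2f6) to 0.19 (Nr6a1), and all lie inside the shaded band. Nr2f6 lies outside the narrower band of detected genes at 4 to 100 FPKM (-0.26 to 0.21), which is not drawn.

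Set within the whole nuclear receptor family of 49 mouse genes, the first 3 places were held by Esrrb, Nr0b1 and Nr5a2. In all, 7 of the 10 receptors and 12 of the other 39 (30.8%) were detected. Together these were 19 of 49 (38.8%), near the 39.4% of all genes. The median FPKM was 11.3 for the 10 and 0.104 for the other 39. No replicate of a receptor outside the 10 reached those of Esrrb, Nr0b1 or Nr5a2. The nearest was Nr1h2, an oxysterol receptor, at 29.6 and 27.7, followed by Rxrb, a heterodimer partner of many receptors, at 22.7 and 21.2. Esrra and Nr2c2 also overlapped no receptor outside the 10. Nr2f6 overlapped Nr1d2 (9.19 and 10.1), and Nr6a1 overlapped Rara (4.90 and 4.46) and Thra (4.25 and 4.88). The 3 highest genes held 56.1% and 55.7% of the summed FPKM of the family in replicates 1 and 2, and Esrrb alone held 30.8% and 29.9%. The 10 genes were chosen with results of these data known, so their position in the family is a description.

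**Figure D3:**
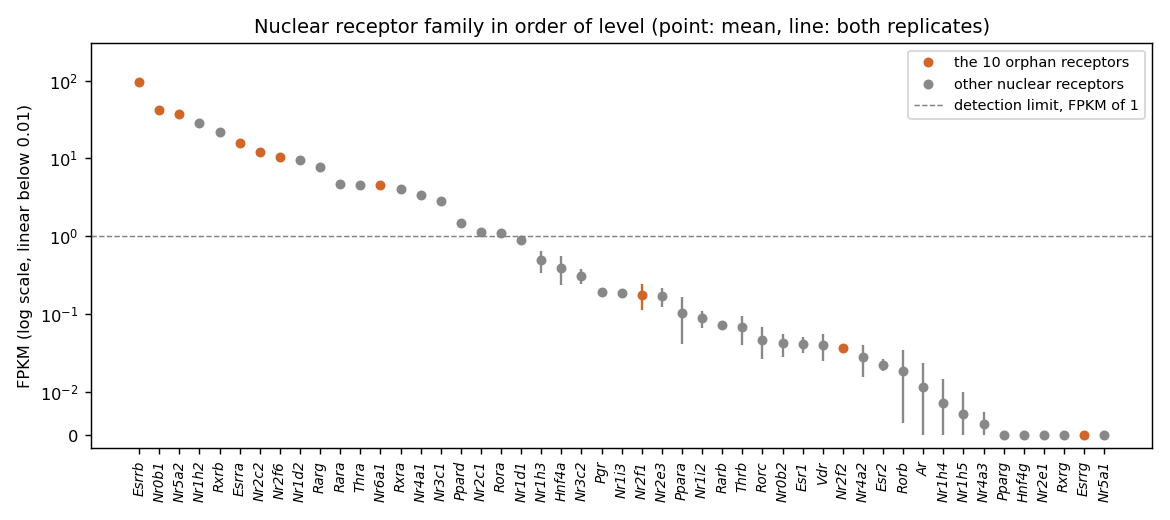
Mean FPKM of the 49 nuclear receptor genes in order of level (vertical axis logarithmic above 0.01 and linear below, lines spanning both replicates). The 10 orphan receptors, in orange, hold the first 3 places and reach down to Esrrg at 0, and 19 genes lie above the dashed limit of 1.

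Receptors act through cofactors, and these were present in an uneven way. Of 13 measured coactivators 10 were detected, against 39.4% of all genes. The list median was 7.18, against 12.7 over all detected genes. Ncoa3, a known coactivator of Esrrb, had the highest mean of the list, at 15.1 and 15.8. Med1, the Mediator subunit that contacts receptors, had 15.7 and 14.04, above Ncoa3 in replicate 1. Pprc1 had 9.12 and 11.4. The PGC-1 coactivators best known as partners of estrogen-related receptors in muscle and liver were the lowest of the list. Ppargc1a was listed at 0 in both replicates, and Ppargc1b had 0.451 and 0.308. Their relative Pprc1 was thus the detected member of the PGC-1 family.

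Of 16 corepressors 11 were detected, against 39.4% of all genes (list median 6.61, against 7.18 for the coactivators). The highest of these corepressors stood above the highest coactivator. The histone demethylase gene Kdm1a had an FPKM of 91.4 and 95.2, Tbl1xr1, a subunit of the NCoR complex, had 54.2 and 43.3, and the scaffold Ncor1 had 47.9 and 46.0. The lowest corepressors were Bcl11a (0.0500 and 0.0738) and Bcl11b (0.0112 and 0.0112), known as partners of the COUP-TFs. Of the COUP-TF genes themselves, Nr2f1 and Nr2f2 were below the limit and Nr2f6 was detected.

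Genes of the axis that ties Esrrb to the naive network were nearly all detected, 15 of 16, against 39.4% of all genes. The list median was 18.5, against 12.7 over all detected genes. The exception was Tcf7l1, the repressor that acts on Esrrb, at 0.861 and 1.36, which is above the limit in replicate 2 alone. Its antagonist Ctnnb1, the gene of beta-catenin, had 403 and 408. Of the GSK3 kinase genes, whose products the medium inhibits, Gsk3b had 7.24 and 5.53 and Gsk3a had 13.2 and 12.9. Pou5f1 and Zfp42 (388 and 377) were the other leading genes of this list. Esrrb exceeded Tfcp2l1 (69.6 and 69.0), the naive factor that is a known target of it, and lay below Sox2 (175 and 162).

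Genes named as targets of estrogen-related receptors in oxidative metabolism were abundant. Of 14, 12 were detected, against 39.4% of all genes. The list median was 77.8, against 12.7 over all detected genes. Acadm, of fatty acid oxidation, had 159 and 153, and Sdha of the succinate dehydrogenase complex had 131 and 126. Muscle-linked targets were at the bottom, with Pdk4 at 0.794 and 0.632 and Ckmt2 listed at 0 in both replicates. The genes closest to Esrrb in level among the other 153 genes of the lists were Cs, Idh3b, Kdm1a, Cycs and Tfam, at mean FPKM of 94.4, 90.7, 93.3, 89.1 and 89.3. Closeness was the larger of the absolute differences in log2(FPKM + 1) over the 2 replicates, from 0.05 for Cs to 0.17 for Tfam.

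Hepatic and steroidogenic genes that Nr5a2 and Nr5a1 are known to control elsewhere were mostly undetected. Of 12, 2 were detected, against 39.4% of all genes. The 2 were the lipoprotein receptor gene Scarb1 (11.8 and 10.4) and the cholesterol transfer gene Star (2.34 and 2.48). The next highest was Cyp11a1, the first enzyme of steroid synthesis, at 0.0407 and 0.0816. Among the 6 listed at 0 in both replicates were Cyp7a1 and Cyp8b1 of bile acid synthesis and Cyp19a1, the aromatase gene.

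**Figure D4:**
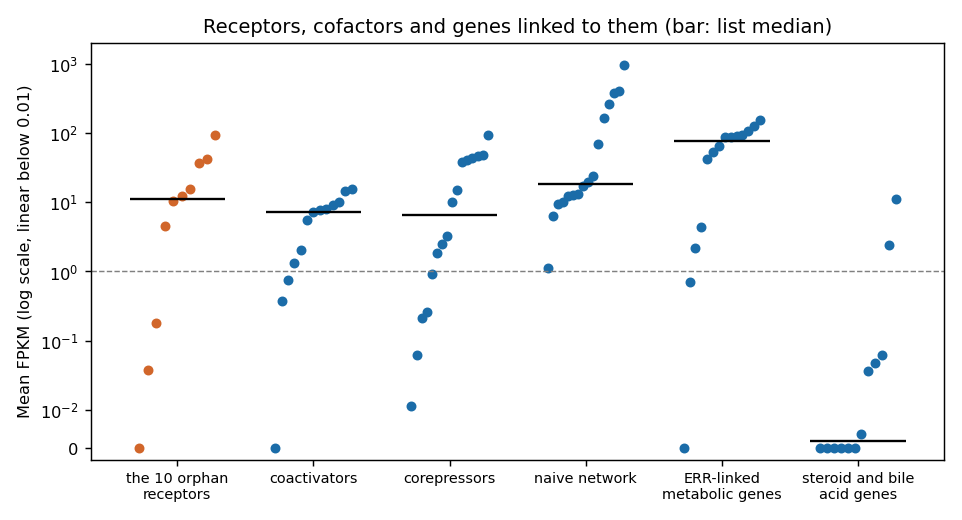
Mean FPKM of the 10 orphan receptors, of 13 coactivators, 16 corepressors, 16 naive network genes, 14 metabolic genes linked to estrogen-related receptors (ERR) and 12 steroid and bile acid genes (vertical axis logarithmic above 0.01 and linear below, black bars list medians). List medians are 11.3, 7.18, 6.61, 18.5, 77.8 and 0.00187 from left to right.

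The base composition of the start regions did not follow the levels of the 10 genes in a simple order. Both Esrrb windows held 7 CpG dinucleotides, the Nr5a2 windows 2 and 7, and the Nr0b1 window 14. Those are below the median of 21 over 10990 windows of detected genes, and the Esrrb and Nr5a2 counts are near the median of 5 over 11970 windows of undetected genes. Esrra had 25, Nr2c2 20 and Nr2f6 53, the highest of the 17 windows, and the Nr6a1 windows had 10 and 8. The undetected Nr2f1 had 23 in its upstream window and 4 in the other, Esrrg had 15 to 22 over 4 windows, and Nr2f2 had 2. Which start the RNA came from is not known from gene-level values. To show the contrast, the 120 bases before the upstream start of the 3 highest receptors and of Nr2f6 are printed 5′ to 3′ on the strand of the gene, with CpG in capitals.
Esrrb, chr12:86360997-86361116, 3 CpG: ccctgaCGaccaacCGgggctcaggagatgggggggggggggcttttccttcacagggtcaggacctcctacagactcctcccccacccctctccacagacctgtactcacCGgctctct
Nr0b1, chrX:86191655-86191774, 10 CpG: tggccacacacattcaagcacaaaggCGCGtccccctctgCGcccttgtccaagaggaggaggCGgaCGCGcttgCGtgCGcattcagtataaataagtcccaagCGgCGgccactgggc
Nr5a2, chr1:136960449-136960568, 1 CpG: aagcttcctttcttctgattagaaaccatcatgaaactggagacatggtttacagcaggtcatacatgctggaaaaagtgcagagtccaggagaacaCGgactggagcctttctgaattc
Nr2f6, chr8:71381953-71382072, 24 CpG: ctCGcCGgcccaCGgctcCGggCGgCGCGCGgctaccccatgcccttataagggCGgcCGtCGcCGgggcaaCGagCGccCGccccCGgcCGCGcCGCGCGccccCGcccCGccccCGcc
The Esrrb stretch has its 3 CpG near its ends, and the Nr2f6 stretch carries them throughout.

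**Figure D5:**
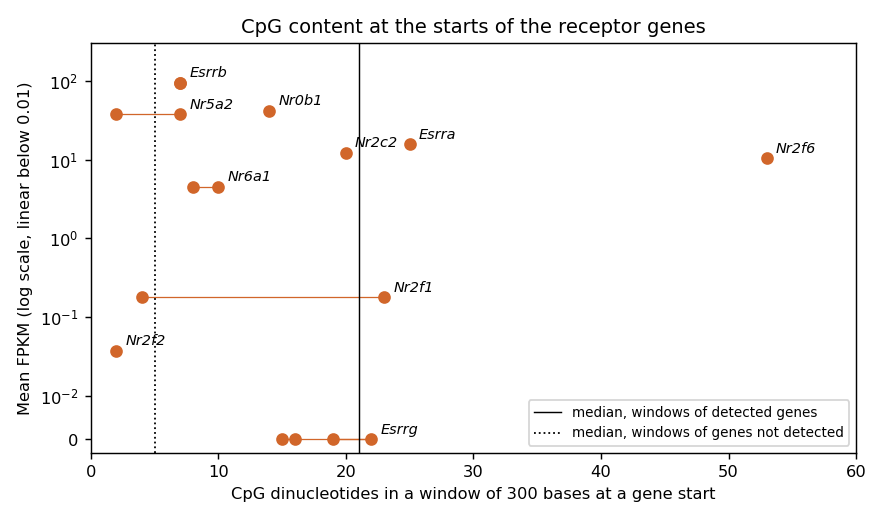
CpG count of each RefSeq start window of 300 bases (horizontal axis) against the mean FPKM of the gene (vertical axis logarithmic above 0.01 and linear below), with lines joining windows of 1 gene. Esrrb and Nr5a2 lie at 2 to 7 CpG, left of the median of 21 for windows of detected genes (solid line), and Nr2f6 lies at 53.

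On the RefSeq map the 3 highest receptors stood above their nearest measured genes, which were far off. For Esrrb these were Gpatch2l, detected at 4.98 and 4.96 (66460 bases away), and Vash1 at 0.337 and 0.325 (157072 bases). Nr0b1 was flanked by Samt3, listed at 0 (144462 bases), and Mageb4 at 0.248 and 0.130 (54309 bases). Nr5a2 was flanked by Platr22 at 0.240 and 0.202 (116834 bases) and Gm4258, listed at 0 (938016 bases). Esrra lay instead in a dense stretch, between Prdx5 (33.6 and 31.2) and Catsperz (3.26 and 2.36). Nr2f6 was flanked by Ocel1 (3.68 and 3.87) and Ushbp1 (0.987 and 0.845). Around the undetected receptors, Nr2f1 had Fam172a (1.88 and 2.11) and, at 2684511 bases, Arrdc3 (31.7 and 34.5). Nr2f2 had Arrdc4 (41.0 and 37.2) at 1602708 bases and 6030442E23Rik (0 and 0.240) on the other side. Nr6a1 also neighboured Olfml2a, listed at 0, and Esrrg had Gm37896, listed at 0, at its lower coordinate. Over the 20 flanking positions, 8 genes were detected, near the share of 39.4% over all genes, and 5 of the 10 receptors had a flanking gene above them.

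Overlapping genes limit what can be said of some members, because the use of strand in the counting is not given in the sources used here. Nr2c2 shares 3547 bases with Mrps25, a mitochondrial ribosomal protein gene on the opposite strand at 80.3 and 67.9, so its level is uncertain. It is also flanked by Rbsn (13.2 and 13.1) and Fgd5 (0.237 and 0.111). Esrra shares 52 bases with Trmt112 (41.9 and 44.2), also on the opposite strand. Esrrb shares 56 bases with Gm40483, and Nr2c2 6400 bases with Gm46967. Both are lncRNA genes on the opposite strand that were not measured. The overlap of Nr6a1 with Nr6a1os, given above, falls under the same limit. The measured lncRNA genes that overlap the undetected receptors were not detected either. A830082K12Rik at Nr2f1 had 0.0205 and 0.00653, B130024G19Rik at Nr2f2 had 0 and 0.00494, and Gm36388 and 9330162B11Rik at Esrrg were listed at 0.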

How the data were processed

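The authors deposited 1 table of gene-level FPKM with 2 columns, matched to the replicates by the sample descriptions. The submitters' processing notes name CASAVA, TopHat2, Cufflinks, mm10 and GRCm38, without versions, annotation release or use of strand. Stable identifiers gave a symbol to 28256 of 28592 genes, and all 10 receptors matched. Prmt1, a listed coactivator, is not analysed here. Spans, strands and start windows came from RefSeq on GRCm38.p6. The receptors, lists and limits were chosen with earlier results of these data known. Named are the receptors, their relatives, the 3 highest and 2 lowest genes of each cofactor or target list, map neighbours and the 5 genes nearest Esrrb in level. Some genes that this rule names are not reported here. Tfcp2l1, Sox2, Gsk3a, Nr1h2, Rxrb and the receptors overlapping a member were added after their values were seen, as were the marker genes named. Depth in reads is unknown. Of 2288 genes above 0 in both replicates with a mean FPKM under 0.1, 66.8% had a replicate ratio near that of small whole numbers. The whole numbers were at most 8 and the tolerance 0.01 in log2. The share that arbitrary ratios would give was not computed. No count model was used. Calculations used Python 3.11.15, NumPy 2.4.6, pandas 2.3.3 and Matplotlib 3.10.9, and the detection and ratio steps were tested on simulated data. The simulated replicates differed less than the real ones, so that test checks the code and not the noise of the data. Alternatives covered detection limits, rescaling to TPM, centring of replicates, pseudocounts and leaving out each replicate.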

Additional observations from a re-analysis of the deposited data

How the results depend on the processing

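The 7 detected receptors stayed at 7 with a limit of 0.5, after rescaling to TPM and without either replicate, and numbered 8 at a limit of 0.1 and 6 at a limit of 5. At a limit of 5, the nuclear receptors detected numbered 10 in place of 19, and the steroid and bile acid genes 1 in place of 2. At a limit of 0.1, Nr2f1 entered and 1 receptor lay past 1.5-fold between the replicates, in place of 0. At the same limit the nuclear receptors detected numbered 27. These changes follow from the limits themselves. The share of all genes was computed at the limit of 1 only, so these counts have no background beside them. Tcf7l1 was the gene that brought the naive network to 16 of 16 without replicate 1, and also at limits of 0.5 and 0.1 with both replicates. Rescaling to TPM multiplied every gene by 1.06 in replicate 1 and by 1.08 in replicate 2. It moved the levels of 3 receptors by more than their SD (Esrrb to 101, Nr5a2 to 40.2, Nr2f2 to 0.0397). As the factors are the same for all genes, such a move marks a small SD for the level. All 9 steps of the order kept non-overlapping replicates under TPM and after centring, alternatives chosen after seeing the data. The median log2 shift between the replicates was -0.0039. The Esrrb share of the summed FPKM of the 10 receptors was 43.5%, and 43.3% and 43.7% without replicates 1 and 2. No paired analysis was possible because there is 1 group. With 2 replicates, unknown read depth and 1 cell state, small gaps between receptors are not resolved.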

Other observations

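Receptors outside the 10 that were detected, 12 of 39 (30.8%, against 39.4% of all genes), included partners and ligand-responsive genes. Besides Nr1h2 and Rxrb, the clock repressor Nr1d2 had a mean FPKM of 9.66 ± 0.665, the retinoic acid receptors Rarg and Rara 7.71 ± 0.502 and 4.68 ± 0.307, and Rxra 4.04 ± 0.176 (SD, n = 2). The immediate-early orphan receptor Nr4a1 stood at 3.43 ± 0.174 and the glucocorticoid receptor Nr3c1 at 2.85 ± 0.463. Nr2e1, Nr5a1, Pparg, Hnf4g and Rxrg were listed at 0 in both replicates. These genes were named after their values were seen.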
